A study of Bos taurus with 24 samples.

Results

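The basement membrane genes described here are LAMA1, LAMA5, LAMB1, LAMC1, COL4A1, COL4A2, NID1, FN1, HSPG2 and SPARC, 10 of the 24621 genes counted in single bovine early blastocysts. They were chosen by name as components of the laminin and collagen IV sheet and its partners, and LAMA1 was taken as their starting point because it was higher when embryos were produced in serum-free medium. The values of LAMA1 in that medium therefore chose the set and are given as a description, with no test. Of the 10 genes, 9 are listed under their own symbol, while LAMC1 is listed as LAMC1_1 and LAMC1_2, so that 11 rows were followed.

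A basement membrane is a thin extracellular sheet on which epithelial cells rest. Laminins, trimers of an alpha, a beta and a gamma chain, assemble on the cell surface, and a network of collagen IV trimers stabilises the sheet, with nidogen and perlecan linking both networks. In the blastocyst the trophectoderm and the hypoblast are the epithelia that lie on such a sheet, and laminin chains are known to be made before the embryo implants.

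The study asked how culture and sex alter the transcriptome of early blastocysts, with 24 embryos sequenced singly after amplification of their RNA. In vivo derived embryos (A1 to A4 and A8 male, A6, A7 and A9 female) were flushed from superovulated Holstein cows. Embryos produced in serum-containing medium (B1, B5 and B7 male, B2, B3, B4, B6 and B8 female) were matured with 20% fetal bovine serum and cultured with 5%. Embryos produced in serum-free medium (C1, C2, C4, C6 and C7 male, C3, C8 and C10 female) were matured with 20 ng/mL of epidermal growth factor and cultured with 0.4% bovine serum albumin and insulin, transferrin and selenium. Semen of the same bull was used for all embryos, and all in vitro embryos were matured, fertilised and cultured outside the cow, so that a difference from in vivo derived embryos is one of the whole production system and not of serum alone. The study used fewer donor cows and fewer in vitro experiments than embryos, so some embryos share a cow or an experiment. Which ones do is not given, nor is the sequencing lane of an embryo. The p-values measure the spread between these embryos and treat each as independent.

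Exon counts per embryo ranged from 3253051 to 9000447. The Y-linked DDX3Y matched the labelled sex of every embryo, with 101 to 902 counts in the 13 males and 0 to 2 in the 11 females. Markers of trophectoderm and inner cell mass were present in every embryo, and the summed level of the inner cell mass list was 764 to 1053 CPM in vivo, 602 to 1263 in serum-containing and 601 to 943 in serum-free medium. CPM here are counts scaled to a common library size after TMM normalisation over all 24 embryos. The 10 trophectoderm markers together had 7384 to 14772 CPM (median 10943) in vivo, 328 to 5202 (median 1416) in serum-containing and 5048 to 28282 (median 8509) in serum-free medium, with the lowest value in B2 and the highest in C7. This sum mainly follows 2 keratins. KRT8 and KRT18 had means of 8976 and 1824 CPM in vivo, against 204 for TFAP2C, 83.5 for GATA3 and 32.7 for TEAD4. Among embryos produced in serum-containing medium B2 stood apart in FN1 and LAMB1. For FN1, LAMA5, LAMB1 and COL4A1 the difference of that medium from in vivo is also given without B2. Since each value comes from a whole embryo, fewer cells of a type and less RNA per cell cannot be told apart.

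**Figure D1:**
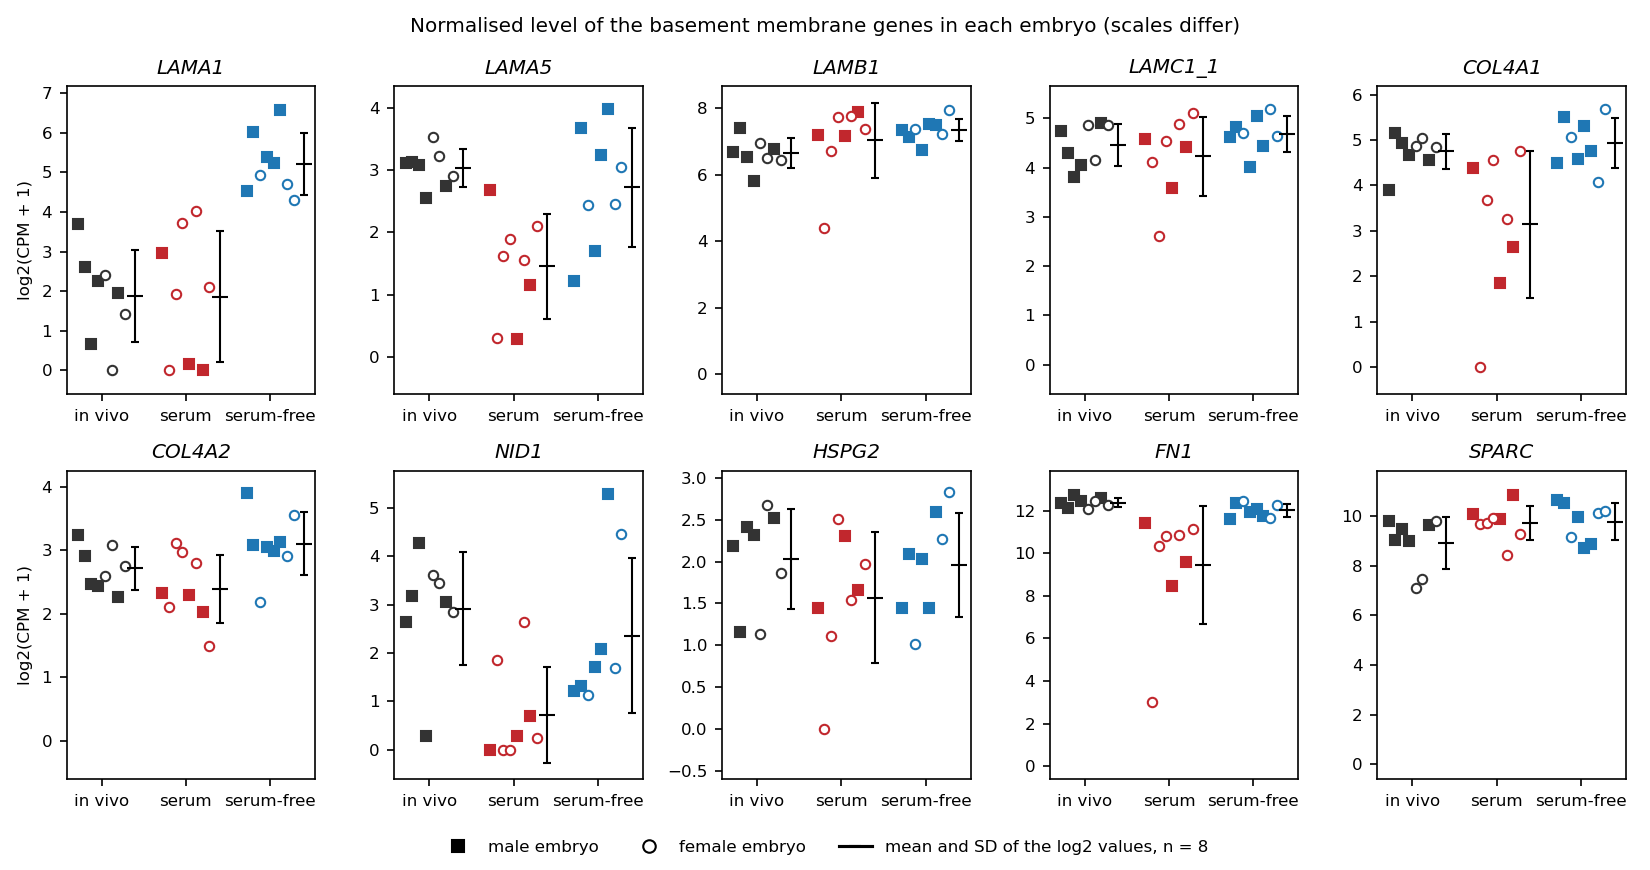
Level of 10 rows of the basement membrane genes in each of the 24 embryos, as log2 of CPM plus 1 on the vertical axis (the scale differs between panels) and by production system on the horizontal axis; filled squares are male and open circles female embryos, and the black bar is the mean and SD of 8 embryos. LAMA1 in serum-free medium lies between 18.6 and 94.8 CPM, above every other embryo, and FN1 in serum-containing medium lies below every other embryo, with B2 at 7.1 CPM.

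LAMA1 encodes the alpha chain of the laminin that is prominent in early embryos. Its levels in in vivo derived embryos were 12.1, 5.08, 0.591, 3.76 and 2.85 CPM in the males A1, A2, A3, A4 and A8, and 4.32, 0 and 1.68 CPM in the females A6, A7 and A9. In serum-containing medium they were 6.85, 0.112 and 0 CPM in the males B1, B5 and B7, and 0, 2.78, 12.3, 15.2 and 3.27 CPM in the females B2, B3, B4, B6 and B8. In serum-free medium they were 21.9, 63.5, 40.8, 36.8 and 94.8 CPM in the males C1, C2, C4, C6 and C7, and 29.6, 25.1 and 18.6 CPM in the females C3, C8 and C10. All 8 embryos produced in serum-free medium were thus above all 16 others, with C7 the highest and C10 the lowest of them. The mean was 41.4 ± 25.8 CPM (SD, n = 8) in serum-free medium, 3.79 ± 3.79 (SD, n = 8) in vivo and 5.06 ± 5.88 (SD, n = 8) in serum-containing medium. The difference was 11-fold from in vivo derived embryos (log2 3.46, standard error 0.55) and 8.2-fold from serum-containing medium (log2 3.04, standard error 0.75). Without C7, which had the highest summed trophectoderm level of all embryos, the log2 differences were 3.17 and 2.71. These values chose the gene and no test is attached to them.

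Between in vivo derived embryos and serum-containing medium, which the choice of LAMA1 did not use, its levels overlapped widely. It did not pass the limit of 15 counts in every embryo of a group there. In a fit without that limit the log2 difference, serum over in vivo, was 0.43 (standard error 0.91, adjusted p = 0.79). The 3 embryos at 0 (A7, B2 and B7) had fewer than the 3 counts taken as the floor, which corresponds to 0.676, 0.710 and 0.922 CPM at their depths; floors cover counting error only.

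LAMA5, the alpha chain of the laminin found widely under epithelia, was low in serum-containing medium. The male in vivo derived embryos A1, A2, A3, A4 and A8 had 7.68, 7.71, 7.48, 4.86 and 5.70 CPM and the females A6, A7 and A9 10.6, 8.33 and 6.47 CPM. In serum-containing medium the males B1, B5 and B7 had 5.42, 0.225 and 1.23 CPM and the females B2, B3, B4, B6 and B8 0.237, 2.09, 2.71, 1.92 and 3.27 CPM. Only B1 reached into the in vivo range, and the other 7 lay below it. LAMA5 was 3.52-fold lower (log2 -1.82, standard error 0.46, edgeR adjusted p = 0.00745), at 2.14 ± 1.71 CPM (SD, n = 8) against 7.35 ± 1.74 (SD, n = 8). Without B2 it was 3.07-fold lower (adjusted p = 0.00842), and it passed with each of the 16 embryos left out in turn. Its counts were small, between 1 and 19 per embryo in serum-containing medium. LAMA5 passed the count limit only through the in vivo group, where it was high (22 to 44 counts), so these p-values are not given as support. In the fit without that limit it was also called (adjusted p = 0.0413), where 3.42% of genes were called lower.

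In serum-free medium LAMA5 spread from 1.33 CPM in C1 to 14.8 CPM in C7, a wider range than the 4.86 to 10.6 CPM of in vivo derived embryos. C2 and C7 were above every in vivo derived embryo, and C1, C3, C4 and C8 were below every one. The mean of 6.84 ± 4.68 CPM (SD, n = 8) differed from the in vivo mean by less than this spread (log2 -0.11, standard error 0.38, adjusted p = 0.905).

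The beta chain LAMB1 and the gamma chain LAMC1, which several laminin trimers share, were not called in any comparison of production systems. LAMB1 had 55.5 to 167 CPM (median 96.3) in vivo, 20.1 to 233 (median 155) in serum-containing and 107 to 245 (median 162) in serum-free medium. The 20.1 CPM belong to B2, while the other 7 embryos of this medium had 104 CPM or more, which only A2, A6 and A8 of the in vivo derived embryos exceeded. LAMB1 was 1.61-fold higher in serum-free medium than in vivo (log2 0.68, standard error 0.18, adjusted p = 0.0326), which is under the 2-fold limit for a call. With each embryo left out that p lay between 0.0114 and 0.0651, and with 1 fit over all 24 embryos it was 0.282. In serum-containing medium the log2 difference from in vivo was 0.57 (standard error 0.32, adjusted p = 0.191). Without B2 it was 0.77 (standard error 0.21, adjusted p = 0.00939), again under the 2-fold limit. Between the 2 media LAMB1 differed by a log2 of 0.12 (standard error 0.31, adjusted p = 0.83), and by -0.07 without B2.

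LAMC1_1 had 13.0 to 29.0 CPM in vivo, 5.10 to 33.6 in serum-containing and 15.2 to 35.4 in serum-free medium, with wide overlap. Its log2 difference from in vivo derived embryos was -0.14 (standard error 0.32, adjusted p = 0.762) in serum-containing and 0.22 (standard error 0.23, adjusted p = 0.633) in serum-free medium. LAMC1_2 had at most 5 counts in any embryo and was at 0 in 16 of the 24, so no difference is given for it. How reads are divided between these rows is not stated, and the level of LAMC1 as a whole was not derived from them.

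COL4A1 and COL4A2 encode the chains of the collagen IV trimer of most basement membranes, and the genes are neighbours in the bovine RefSeq annotation ARS-UCD2.0. COL4A1 had 14.0, 34.5, 29.5, 24.5 and 22.5 CPM in the male in vivo derived embryos A1, A2, A3, A4 and A8, and 28.1, 32.2 and 27.6 CPM in the females A6, A7 and A9. In serum-containing medium the males B1, B5 and B7 had 20.0, 2.59 and 5.23 CPM and the females B2, B3, B4, B6 and B8 0, 11.8, 22.6, 8.55 and 26.0 CPM. In serum-free medium the males C1, C2, C4, C6 and C7 had 21.3, 44.8, 22.8, 38.3 and 26.2 CPM and the females C3, C8 and C10 32.5, 15.9 and 50.0 CPM. B2, B3, B5, B6 and B7 were thus below every in vivo and every serum-free embryo, while B1, B4 and B8 were within their range.

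COL4A1 was 2.24-fold lower in serum-containing medium than in vivo, which did not pass (log2 -1.16, standard error 0.54, adjusted p = 0.111). Without B2 the log2 difference was -0.94 (standard error 0.39, adjusted p = 0.0737). It was 2.64-fold higher in serum-free than in serum-containing medium (log2 1.40, standard error 0.56, adjusted p = 0.0891), a difference that passed with DESeq2 (adjusted p = 0.0405) and with 1 fit over all 24 embryos (adjusted p = 0.0377). Without B2 this difference did not pass (log2 1.19, standard error 0.41, adjusted p = 0.057). With all embryos, COL4A1 passed the count limit only through the in vivo or the serum-free group, since B2 had 0 counts. The p-values with B2 in the fit are therefore not given as support. Between serum-free medium and in vivo the log2 difference was 0.24 (standard error 0.24, adjusted p = 0.611).

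COL4A2 had few counts, from 10 to 73 per embryo. Its range was 3.80 to 8.50 CPM in vivo, 1.82 to 7.65 in serum-containing and 3.56 to 13.9 in serum-free medium, where C1 was highest. The log2 difference from in vivo was -0.34 (standard error 0.31, adjusted p = 0.434) in serum-containing and 0.48 (standard error 0.28, adjusted p = 0.331) in serum-free medium, and 0.82 (standard error 0.34, adjusted p = 0.101) between the media. In both comparisons with serum-containing medium COL4A2 passed the count limit only through the other group, since B1, B2, B7 and B8 had 10 to 14 counts. B2, with no count of COL4A1, had 14 counts of COL4A2, and B8, with the highest COL4A1 level of its medium, had the lowest COL4A2 level of all 24 embryos.

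Nidogen and perlecan link the laminin and collagen IV networks. NID1, which encodes nidogen-1, had 5.21, 8.06, 18.3, 0.221 and 7.36 CPM in the male in vivo derived embryos A1, A2, A3, A4 and A8, and 11.3, 9.91 and 6.23 CPM in the females A6, A7 and A9. In serum-containing medium the males B1, B5 and B7 had 0, 0.225 and 0.615 CPM and the females B2, B3, B4, B6 and B8 2.60, 0, 0, 5.24 and 0.182 CPM. In serum-free medium C7 and C10 had 38.0 and 20.9 CPM, above every in vivo derived embryo, and the other 6 had 1.19 to 3.21 CPM, below every in vivo derived embryo but A4. NID1 missed the count limit because A4 had 1 count.

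In the fit without the limit NID1 was called, with a log2 difference between serum-containing medium and in vivo of -2.89 (standard error 0.88, adjusted p = 0.035), where 656 of 19159 genes, or 3.42%, were called lower. With A4 left out NID1 passed the limit, but only through the in vivo group, where it was high, so that no value of that fit is given as support. In serum-free medium the log2 difference from in vivo was 0.05 (standard error 0.68, adjusted p = 0.997), with its level divided between the high C7 and C10 and the low remainder. Between the media it was 2.95 (standard error 1.01, adjusted p = 0.0925).

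HSPG2, which encodes perlecan, was near the limit of detection, with 0 to 35 counts per embryo. It ranged from 1.20 to 5.40 CPM in vivo, from 0 to 4.70 in serum-containing and from 1.02 to 6.11 in serum-free medium. Without the count limit its log2 difference from in vivo was -0.52 (standard error 0.65, adjusted p = 0.627) in serum-containing and -0.10 (standard error 0.52, adjusted p = 0.961) in serum-free medium.

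FN1 encodes fibronectin, a matrix glycoprotein bound by integrins and by collagen. In vivo derived embryos had 5251, 4468, 6773, 5663 and 6149 CPM in the males A1, A2, A3, A4 and A8, and 4328, 5669.8 and 4891 CPM in the females A6, A7 and A9. In serum-containing medium the males B1, B5 and B7 had 2756, 355 and 779 CPM and the females B2, B3, B4, B6 and B8 7.10, 1306, 1807, 1877 and 2251 CPM. All 8 were below all in vivo derived embryos, which held for 3.88% of the 7339 genes tested in this comparison. FN1 was 3.94-fold lower (log2 -1.98, standard error 0.57, adjusted p = 0.0143), at 1392 ± 955 CPM (SD, n = 8) against 5399 ± 835 (SD, n = 8). Without B2, which had 30 counts of FN1, it was 3.37-fold lower (log2 -1.75, standard error 0.30, adjusted p = 0.000356), in a fit that called 12% of all genes. It passed with each of the 16 embryos left out, with the highest adjusted p, 0.0326, without B7.

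In serum-free medium FN1 had 3139.8, 5366, 3884, 4401 and 3498 CPM in the males C1, C2, C4, C6 and C7, and 5549, 3250.3 and 4875 CPM in the females C3, C8 and C10. These overlap the in vivo range, with C1, C4, C7 and C8 below it (log2 -0.34, standard error 0.13, adjusted p = 0.128). All 8 were above every embryo produced in serum-containing medium, which held for 1.57% of 7181 genes. FN1 was 3.1-fold higher than in serum-containing medium and missed the threshold (log2 1.63, standard error 0.57, adjusted p = 0.0535). It passed with the exact test, DESeq2, 15 counts required in every embryo and 1 fit over all 24 embryos (adjusted p = 0.0228, 0.0396, 0.0454 and 0.0265). It also passed without B1, B2 or B8 (adjusted p = 0.0414, 0.00728 and 0.0478) and had its highest adjusted p, 0.0987, without B7.

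SPARC encodes a secreted glycoprotein that binds collagen. It had 889, 523, 711, 505 and 808 CPM in the male in vivo derived embryos A1, A2, A3, A4 and A8, and 135, 177 and 909 CPM in the females A6, A7 and A9. Its range was 347 to 1848 CPM (median 908) in serum-containing and 421 to 1595 (median 1062) in serum-free medium. The low in vivo values were those of A6 and A7. The log2 difference from in vivo was 0.68 (standard error 0.36, adjusted p = 0.159) in serum-containing and 0.76 (standard error 0.35, adjusted p = 0.213) in serum-free medium, and 0.07 (standard error 0.30, adjusted p = 0.895) between the media.

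**Figure D2:**
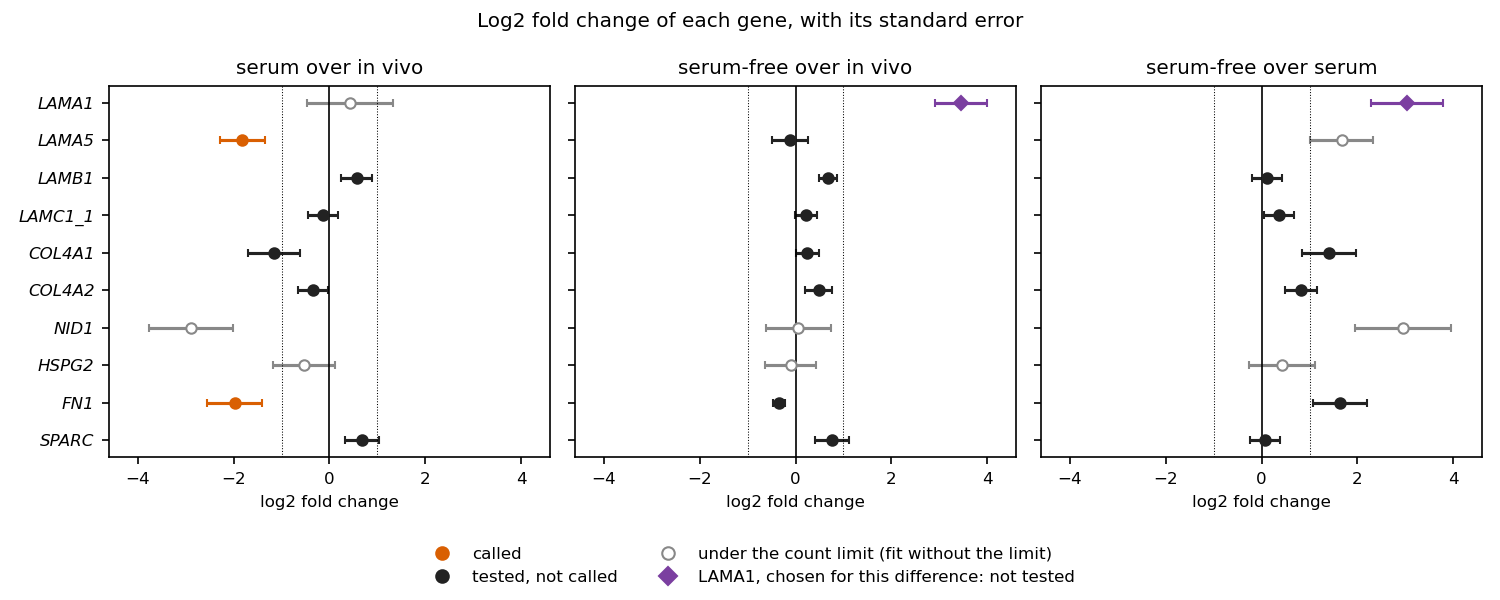
Log2 fold change (horizontal axis, points) with its standard error (bars) of each basement membrane gene in 3 comparisons of production systems, 8 embryos against 8; dotted lines mark a 2-fold change, open points come from the fit without the count limit and the diamond marks LAMA1 where it was chosen for the difference. LAMA5 (-1.82) and FN1 (-1.98) are the called points between serum-containing medium and in vivo.

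Between serum-containing medium and in vivo derived embryos, 2 of the 7 rows that passed the count limit were called, LAMA5 and FN1, both lower. LAMA5 passed the limit only through the in vivo group, with 22 to 44 counts there and 1 to 19 in serum-containing medium, and it was not tested when every embryo of both groups needed 15 counts. COL4A1 and COL4A2 also passed only through the in vivo group, with 0 to 143 and 10 to 38 counts in serum-containing medium. Over all genes 1011 of 7339, or 13.8%, were called, and 7.34% were called lower. The median log2 fold change of the 7 rows was -0.34, and that of all genes tested 0.01. The median of the 7 rows holds LAMA5, COL4A1 and COL4A2 and is not given as support. Between serum-free medium and in vivo, where 2.2% of 7314 genes were called, 0 of the 7 rows tested other than LAMA1 were called by edgeR's quasi-likelihood test, its exact test or DESeq2. FN1, LAMB1 and SPARC had an unadjusted p under 0.05 there, and the median of the 7 was 0.24, against 0.00 for all genes. Between the media, where 8.91% of 7181 genes were called, 0 of 6 rows other than LAMA1 were called by the quasi-likelihood test, 1 by the exact test and 2 by DESeq2. There COL4A1, COL4A2 and FN1 had an unadjusted p under 0.05, and the median was 0.59, against -0.02. COL4A1, 1 of the 2 called by DESeq2, and COL4A2 passed the limit there only through the serum-free group. Their p-values and this median, which holds them, are not given as support. These comparisons share embryos, so their values are not independent of each other.

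Most trophectoderm and some hypoblast markers were also lower in serum-containing medium. Of the 8 trophectoderm markers tested, 6 were lower than in vivo (GATA2, GATA3, KRT8, KRT18, KRT19 and IFNT, which belongs to a family of near-identical genes), with log2 differences between -1.88 for GATA3 and -3.52 for KRT19, and the same 6 were higher in serum-free than in serum-containing medium. The other 2 were not called and lay in the other direction, TEAD4 with a log2 difference from in vivo of 0.71 (adjusted p = 0.105), with 7 of 8 embryos above every in vivo derived embryo, and TFAP2C with 0.32 (adjusted p = 0.292). GATA2, GATA3, KRT19 and IFNT passed the count limit only through the group compared with serum-containing medium, where they were high. Over all genes 13.8% were called between serum-containing medium and in vivo, with 7.34% called lower, and 8.91% were called between the media. Between serum-free medium and in vivo 0 of 8 were called. Within serum-containing medium the embryos with the lowest summed trophectoderm level, B2, B7 and B5, were also the 3 with the lowest FN1 and the lowest COL4A1. Of 4 hypoblast markers tested, DAB2 (log2 -1.12) and PDGFRA (log2 -2.04) were lower than in vivo, DAB2 only with both B2 and B5 in the fit (log2 -0.92 and -0.97 without them). GATA6 (log2 0.16, adjusted p = 0.709) and RSPO3 (log2 -0.40, adjusted p = 0.627) were not called. Between the media DAB2 was the only 1 of 3 hypoblast markers called, higher in serum-free medium (log2 1.48, edgeR adjusted p = 0.0115). The summed hypoblast list had 860.0 to 1245 CPM in vivo, 92.1 to 734 in serum-containing and 833 to 1250.3 in serum-free medium. This sum mainly repeats DAB2 and PDGFRA, with means of 602 and 435 CPM in vivo, against 19.0 for GATA6 and 9.57 for RSPO3. Of 6 inner cell mass markers tested, SOX2 was higher (log2 1.25, adjusted p = 0.0271), and without B3 it did not pass (adjusted p = 0.0782). The other 5 were not called. Between the media KLF4 was the only 1 of 7 called, lower in serum-free medium (log2 -1.12, edgeR adjusted p = 0.017). Without B3 it fell short of 2-fold (log2 -0.94). The part of these cell types in the differences of the basement membrane genes was not tested.

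**Figure D3:**
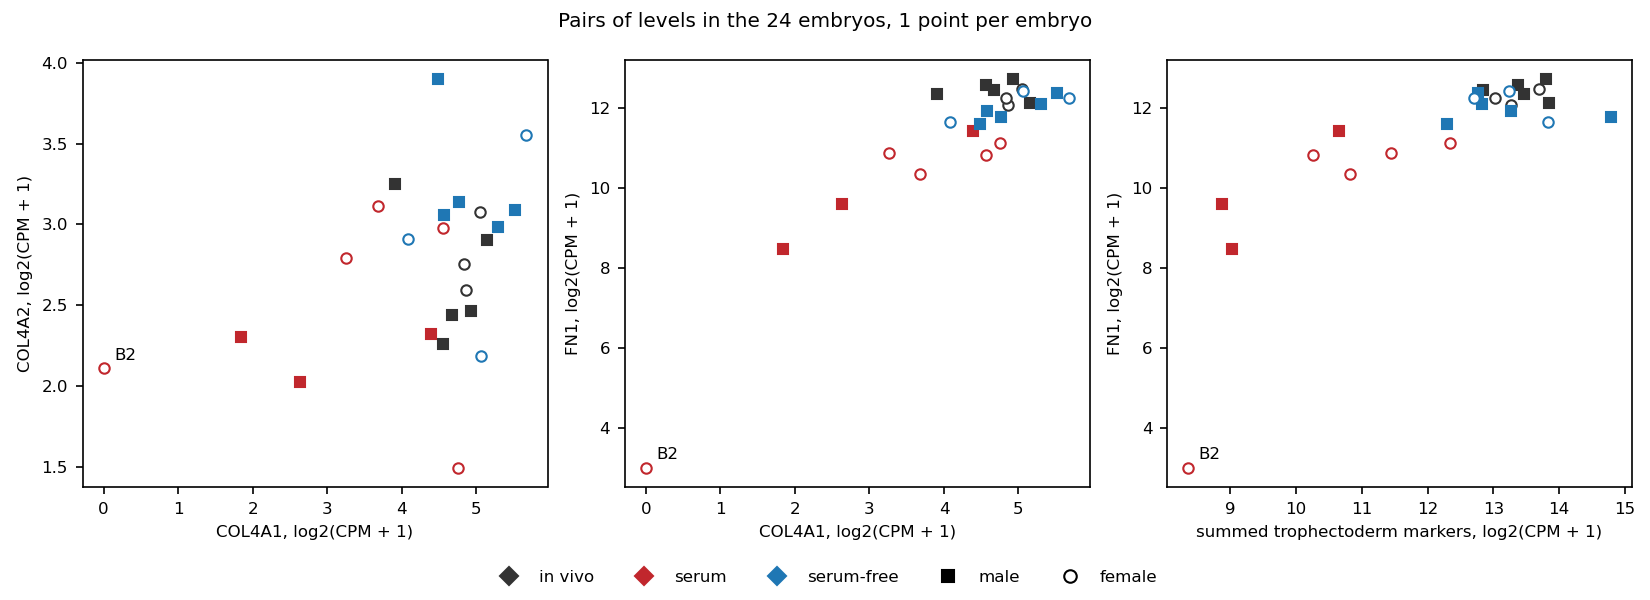
Levels in the 24 embryos as log2 of CPM plus 1, each point an embryo, for COL4A1 and COL4A2, COL4A1 and FN1, and the sum of 10 trophectoderm markers and FN1. In vivo that sum is mostly KRT8 and KRT18. COL4A1 and COL4A2 spread without a common trend (r = 0.07 after removing the culture means), COL4A1 and FN1 rise together (r = 0.88), and B2 lies lowest in FN1, COL4A1 and trophectoderm level.

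Markers of cells that could remain on the embryo were also summed. The 14 cumulus genes summed to 7.08 to 68.4 CPM over all embryos, with PTX3 at 0 in each, and CYP19A1, the only such gene tested, was not called against in vivo in serum-containing medium (log2 -0.70, adjusted p = 0.355) or in serum-free medium (log2 -0.96, adjusted p = 0.199). The 7 blood genes summed to 3.27 to 14.4 CPM and the 8 endometrial genes to 2.25 to 23.2 CPM, with FOXJ1 at 0 in every embryo. B2 had the highest cumulus and the highest endometrial sum of all embryos. The part of such cells in the levels of the basement membrane genes was not tested.

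The other laminin and collagen IV chains were scarce. The 7 further laminin chains listed summed to 0 to 24.4 CPM, the 4 further collagen IV chains to 0.112 to 11.1 CPM, and none of the 11 passed the count limit in any of the 3 comparisons of production systems. B2 had the highest sum of both lists.

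Of the 22 other basement membrane components listed, NID2 and FBLN2 passed the limit. NID2, which encodes nidogen-2, had 7.83 to 38.1 CPM (median 17.1) in vivo, 9.50 to 45.6 (median 30.7) in serum-containing and 16.0 to 102 (median 76.6) in serum-free medium. It rose 3.65-fold in serum-free medium against in vivo (log2 1.87, standard error 0.36, adjusted p = 0.00447), with 7 of 8 embryos above every in vivo derived embryo. Against serum-containing medium it was 2.58-fold higher (adjusted p = 0.0231), a call lost without C7 (adjusted p = 0.0503). FBLN2, which encodes the matrix glycoprotein fibulin-2, was 3.59-fold lower in serum-containing medium than in vivo (log2 -1.84, standard error 0.44, adjusted p = 0.00512). It passed the count limit only through the in vivo group, with 3 to 29 counts in serum-containing medium. Of all genes 7.34% were called lower in that comparison, and 2.2% were called between serum-free medium and in vivo.

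Among 24 matrix receptors, 8 passed the limit between serum-containing medium and in vivo, and 2 were called, both lower, against 7.34% of all genes called lower. DAG1, which encodes dystroglycan, a laminin receptor, had 0.337 to 5.78 CPM in serum-containing medium against 8.64 to 24.9 in vivo (log2 -2.34, standard error 0.47, adjusted p = 0.00176). CD151, a tetraspanin that associates with laminin-binding integrins, had 4.92 to 49.4 CPM against 74.0 to 116 (log2 -2.11, standard error 0.40, adjusted p = 0.0011). The groups did not overlap for either gene, as held in this direction for 3.88% of all genes. DAG1 passed the count limit only through the in vivo group, with 2 to 32 counts in serum-containing medium, while CD151 passed in both groups. ITGB1, the beta subunit of most laminin and collagen receptors, was 1.39-fold lower (adjusted p = 0.0304), under the 2-fold limit. Both DAG1 (4.12-fold, adjusted p = 0.0121) and CD151 (3.42-fold, adjusted p = 0.0108) were higher in serum-free than in serum-containing medium, and 0 of 8 receptors were called between serum-free medium and in vivo. Between the media, where 8.91% of all genes were called, DAG1 passed the count limit only through the serum-free group. The median log2 difference of the 8 receptors against in vivo was -0.67 in serum-containing medium and -0.09 in serum-free medium.

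Of 16 collagen and laminin processing genes tested between serum-containing medium and in vivo only CRTAP, a component of the collagen prolyl hydroxylation complex, was called, 2.87-fold lower (adjusted p = 0.000332) at 7.19 to 18.8 CPM against 27.4 to 52.3. That 1 of 16 is near the 7.34% of all genes called lower. Between the media 2 of 16 were called, where 8.91% of all genes were. P4HA2, a catalytic subunit of collagen prolyl hydroxylase, was 4.19-fold higher in serum-free medium (adjusted p = 0.00256), with 26.5 to 144 CPM against 7.99 to 26.4. PPIB, a partner of CRTAP, was 2.42-fold higher (adjusted p = 0.0264), a call lost without B3, B7 or C7 (adjusted p = 0.0507, 0.0535 and 0.0757) and with sex as a covariate (adjusted p = 0.0557). Against in vivo, 0 of 15 were called in serum-free medium, where P4HA2 was 2.13-fold higher with an adjusted p of 0.141.

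For matrix degradation, 6 of 24 genes listed passed the limit and 2 were lower in serum-containing medium than in vivo, against 7.34% of all genes called lower. PLAU, the urokinase plasminogen activator, was 7.08-fold lower (adjusted p = 0.00313), with 0 to 74.2 CPM against 71.9 to 386. CTSL1, a cathepsin, was 2.12-fold lower (adjusted p = 0.00922), and fell short of 2-fold without A1, A6, B2, B3, B5 or B7 (log2 -0.95 without B2, the largest loss). PLAU was 5.28-fold higher in serum-free than in serum-containing medium (adjusted p = 0.025), and this call was lost without B7 (adjusted p = 0.0508) or C7 (adjusted p = 0.0802). Of all genes 8.91% were called between the media. In both comparisons with serum-containing medium PLAU passed the count limit only through the other group, since B2 had 0 counts. Between serum-free medium and in vivo 0 of 6 were called.

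**Figure D4:**
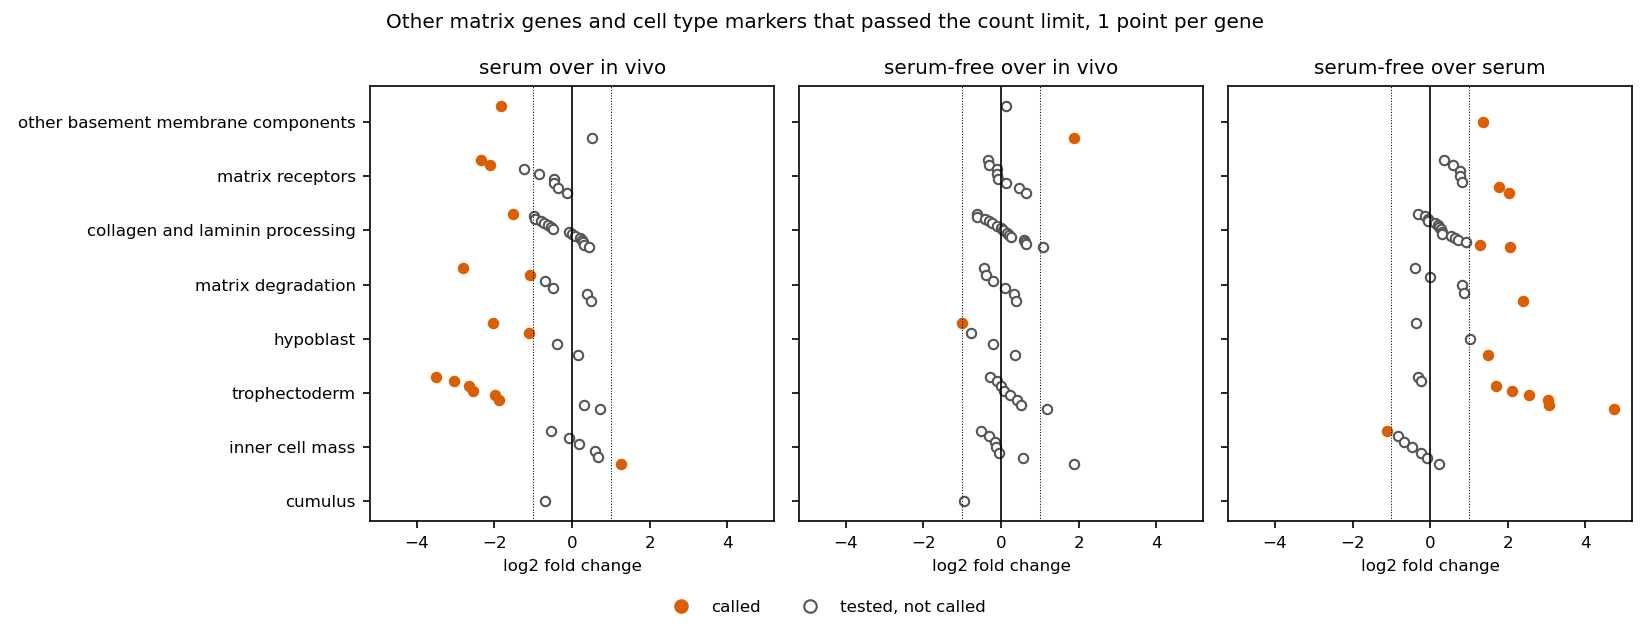
Log2 fold change of each other matrix gene and cell type marker that passed the count limit in 3 comparisons of production systems, 1 point per gene and 1 row per list, filled where called; dotted lines mark a 2-fold change. Between serum-containing medium and in vivo the called points lie to the left except SOX2 (1.25), and between serum-free medium and in vivo only NID2 (1.87) and PDGFRA (-1.01) are filled.

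In serum-free medium PDGFRA was just past the 2-fold limit against in vivo (log2 -1.01, adjusted p = 0.0095), and it fell under that limit with 10 of the 16 embryos left out, with DESeq2, with its size factors and with 15 counts required in every embryo. With 1 fit over all 24 embryos it did not pass (log2 -0.96, adjusted p = 0.23). It was the only called gene of the 4 hypoblast markers tested there. The defining hypoblast gene SOX17 did not pass the count limit in any of these comparisons.

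When the sexes were analysed apart, FN1 was called in male embryos. It was 4.39-fold lower in the 3 males produced in serum-containing medium than in the 5 in vivo derived males (log2 -2.14, standard error 0.52, adjusted p = 0.0152), and was the only 1 of 7 rows called, where 13.3% of 7762 genes were called and 8.03% were called lower. This call was lost without B7 (log2 -1.89, adjusted p = 0.0677, with 8.16% of all genes called) and with 1 fit over all 24 embryos (adjusted p = 0.0706). Without B1, whose FN1 was the highest of its medium, FN1, COL4A1 and LAMA5 were all called, with log2 differences of -3.37, -2.78 and -3.46, where 1755 of 8116 genes, or 21.6%, were called and 2 males of this medium remained. SPARC was 1.87-fold higher in these males (adjusted p = 0.0259), under the 2-fold limit, and was called without A1 or B5 (log2 1.02 and 1.10). All 3 of these males lay above the 5 in vivo derived males in SPARC, as they did for 12.6% of genes.

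In females, 0 of 8 rows were called by the quasi-likelihood test between serum-containing medium and in vivo, where 34 of 8138 genes, or 0.418%, were, while LAMA5 was called by the exact test and by DESeq2. LAMA5 was the only row with an unadjusted p under 0.05 (log2 -2.01, standard error 0.61, adjusted p = 0.128). FN1 was 3.41-fold lower (log2 -1.77, standard error 0.98, adjusted p = 0.322). Without B2 both were called, FN1 with a log2 of -1.47 (adjusted p = 0.0048) and LAMA5 with -1.76 (adjusted p = 0.0457). The number called over all genes then rose likewise, to 446 of 8357, or 5.34%, and it was 2 to 15 with any other embryo left out. All 5 females produced in serum-containing medium were below all 3 in vivo derived females in FN1, LAMA5, COL4A1 and NID1, as they were for 12.5% of genes. In females LAMA5, COL4A1, COL4A2 and NID1 passed the count limit only through the in vivo group, as LAMA5 and COL4A2 did in males.

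Against in vivo, LAMA1 was 10.9-fold higher in serum-free males (log2 3.44) and 12.2-fold higher in serum-free females (log2 3.61), as a description. Of the other rows, 0 of 7 were called in males, where 0.966% of 7662 genes were, and 0 of 8 in females, where 0.304% of 8211 genes were, by the quasi-likelihood test, the exact test or DESeq2. FN1 and LAMB1 in males and LAMB1 in females had an unadjusted p under 0.05. SPARC in serum-free females had 571, 1116 and 1199 CPM against 135, 177 and 909 CPM in vivo (log2 1.24, standard error 0.60, adjusted p = 0.391), and in the fit without the count limit it was called (log2 1.22, adjusted p = 8.88e-07), so that its call in these 3 embryos turned on the genes entered in the fit.

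Between males and females 0 rows were called within any production system by the quasi-likelihood test, the exact test or DESeq2, with 8 rows tested in vivo, 5 in serum-containing medium and, LAMA1 apart, 7 in serum-free medium. Over all genes 0.653%, 0.173% and 0.139% were called. As a description, LAMA1 in serum-free medium was 2.11-fold higher in males (log2 1.08, standard error 0.44), where the males had 51.6 ± 28.4 CPM (SD, n = 5) and the females 24.5 ± 5.54 (SD, n = 3), with C1 the only male inside the female range. SPARC was 1.79-fold higher in males in serum-containing medium (log2 0.84, standard error 0.34, adjusted p = 0.72). LAMA1 apart, SPARC was the only row of these comparisons with an unadjusted p under 0.05. Between in vivo derived males and females SPARC had a log2 difference of 0.76 (standard error 0.47, adjusted p = 0.516), and it was called without A9, the female with the highest level (log2 2.16, adjusted p = 0.00107).

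Whether the difference between production systems depended on sex was tested by the interaction term. It gave 0 of 8 rows in serum-containing medium and 0 of 8, LAMA1 apart, in serum-free medium, with edgeR's quasi-likelihood test and with DESeq2, and 0 rows with an unadjusted p under 0.05. Over all genes 0% of 8446 and 0% of 8425 were called. For FN1 the male minus female difference in log2 fold change was -0.34 (standard error 1.21) in serum-containing and -0.35 (standard error 0.27) in serum-free medium, so that a difference of several fold between the sexes could not be resolved in serum-containing medium.

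Genes whose products form a complex were compared embryo by embryo, on log2 of CPM plus 1 with each culture mean removed, in 6 pairs over 24 embryos with permutation within cultures. COL4A1 and COL4A2 had a Pearson r of 0.07 (permutation p = 0.799, adjusted p = 0.799) and a Spearman rho of 0.20 (permutation p = 0.397, adjusted p = 0.477), and r was -0.23 in vivo, 0.15 with serum and -0.01 without serum. Without B2 and B5, the embryos farthest from the median of COL4A1, r was -0.11. LAMB1 and LAMC1_1 had r = 0.31 (permutation p = 0.269, adjusted p = 0.538) and rho = 0.48 (permutation p = 0.0232, adjusted p = 0.139), with 0.32, 0.30 and 0.35 in the cultures in the same order. Without A4 and B2, r of this pair was 0.48. LAMA1 with LAMC1_1, a description because the pair holds the serum-free values of LAMA1, had r = 0.31 and rho = 0.32, with 0.47, 0.37 and -0.26 in the cultures, and r = 0.35 without C2 and C7.

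LAMA5 with LAMC1_1 had r = 0.28 (permutation p = 0.236, adjusted p = 0.538) and rho = 0.31 (permutation p = 0.151, adjusted p = 0.326), with 0.15, 0.37 and 0.26 in the cultures, and r = 0.19 without B2 and B5. NID1 with LAMC1_1 had r = 0.06 (permutation p = 0.755, adjusted p = 0.799) and rho = 0.05 (permutation p = 0.804, adjusted p = 0.804), with 0.06, 0.30 and -0.23 in the cultures, and r = 0.19 without C7 and C10. SPARC with COL4A1 had r = -0.13 (permutation p = 0.487, adjusted p = 0.73) and rho = -0.21 (permutation p = 0.309, adjusted p = 0.463), with -0.45, -0.10 and -0.10 in the cultures, and r = -0.12 without A6 and A7. None of the 5 pairs tested passed after adjustment, which was made over all 6. The counts of COL4A2, LAMA5 and NID1 were low, and the part of counting error in these values was not tested.

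Genes whose levels over the 24 embryos were most like those of a basement membrane gene were listed as a description, among 7556 genes. FN1 was second only to AHCY, an enzyme of the methionine cycle, in likeness to COL4A1 (r = 0.92 and 0.93), followed by ATP6V0A4 and VPS36 (both 0.91). After removing the culture means AHCY and FN1 were again nearest (0.89 and 0.88), followed by DEGS2 and GGTA1 (both 0.87). COL4A1 and FN1 had r = -0.14 within in vivo derived embryos, 0.93 within serum-containing and 0.83 within serum-free medium, and 0.80 after removing the culture means without B2. For LAMA1 the nearest were FADS1, SMIM1, PCK2, MTP18 and CCND3 (0.81, 0.80, 0.77, 0.77 and 0.76), and after removing the culture means MDP-1, PAN2, ANO10, FZD10 and CIRBP (0.84, 0.79, 0.78, 0.74 and 0.73). All points of such a comparison share library, depth and normalisation.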

How the data were processed

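Single early blastocysts were lysed and their RNA amplified with a SMARTer kit that does not keep strand, and paired-end reads were mapped by the authors with CLC Genomics Workbench to the bovine genome UMD 3.1. The authors deposited counts, not normalized, of uniquely mapped exon fragments per gene, 1 column per embryo for 24 embryos. Without strand, reads of overlapping antisense genes cannot be told apart, and levels were not compared between genes because no transcript lengths were used.

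Counts were normalized by TMM and tested with the quasi-likelihood test of edgeR 4.0.16 (R 4.3.3) between the groups compared, with Benjamini-Hochberg adjustment over all genes tested. A gene was tested with at least 15 counts in every embryo of at least 1 group, and called when the adjusted p was under 0.05 and the change 2-fold or more. Standard errors are the log2 fold change divided by the square root of F. Levels are CPM with TMM factors over all 24 embryos. Members under the limit were also fitted with every gene that had a count in any embryo, a choice made after seeing the data. The exact test, DESeq2 1.42.0, DESeq2 size factors, other count limits, sex as a covariate, 1 fit over all embryos and each embryo left out were alternatives. Serum-free against serum-containing medium was added to the comparisons of the study. Correlations used 100000 permutations within cultures and a pseudocount of 1. The scripts were tested on simulated counts. The members and gene lists were chosen with earlier results of these data known. All members were named, and from each list of other matrix genes and markers the called genes, at most 6 by size of change, and the 5 genes nearest to LAMA1 and to COL4A1 among those that passed the limit in at least 1 production system, with an item left out that is not reported here. ITGB1, CYP19A1, TEAD4, TFAP2C, GATA6, RSPO3 and the uncalled value of P4HA2 were named after their values were seen. The embryos carry codes of their own, and no code is shared between production systems.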

Additional observations from a re-analysis of the deposited data

Results flagged for a closer look

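Each gene's 8 log2 levels within a production system were checked for a value far from the others, by Dixon's gap over the range with a limit of 0.526, in 33 sets of values; chance flags about 1 in 20. In serum-containing medium LAMB1 stood apart in B2 (0.668), with 20.1 CPM against 104 to 233. FN1 stood apart in the same embryo (0.649), with 7.10 CPM against 355 to 2756. B2 also had the lowest summed trophectoderm and hypoblast levels of all 24 embryos, 328 and 92.1 CPM, and a total of 4558324 counts, within the range of the other libraries. The part of these in its FN1 and LAMB1 was not tested. NID1 in A4 stood apart among in vivo derived embryos (0.589), with 0.221 CPM, 1 count, against 5.21 to 18.3. LAMC1_2 in B4 was marked (1) because it alone of its medium had any count, 2 counts.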

How the results depend on the processing

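The number of basement membrane rows called between serum-containing medium and in vivo was 2 and became 1 when every embryo of both groups needed 15 counts, since LAMA5 was then not tested, and 3 without a count limit (NID1 added). Between the media, LAMA1 apart, it was 0 and became 1 with the exact test, 2 with DESeq2, 1 when every embryo needed 15 counts and 2 with 1 fit over all 24 embryos. COL4A1, which passed the count limit there only through the serum-free group, was 1 of the 2 in both cases. In males it was 1 between serum-containing medium and in vivo, 2 without a count limit (NID1 added) and 0 with 1 fit over all embryos. In females it was 0 and became 1 with the exact test and with DESeq2 (LAMA5), and between serum-free and in vivo derived females, LAMA1 apart, 1 without a count limit (SPARC). With each embryo left out, the counts were 2 to 3 between serum-containing medium and in vivo (NID1 added without A4), 0 to 1 between the media, 0 to 3 in males and 0 to 2 in females between serum-containing medium and in vivo, and 0 to 1 between in vivo derived males and females (SPARC, without A9). The other counts did not leave 0. Of the correlations, COL4A1 with COL4A2 turned from 0.07 to -0.11 without B2 and B5, with neither value past the threshold. Over all genes, the number called fell from 1011 to 544 (serum-containing medium against in vivo), from 161 to 94 (serum-free medium against in vivo) and from 640 to 366 (between the media) when every embryo needed 15 counts, and 1 fit over all embryos gave 64 between serum-free medium and in vivo, 55 higher and 9 lower, against 118 and 43. Between females the number was 34 against 467 with the exact test and 585 with DESeq2 in serum-containing medium and 25 against 192 and 181 in serum-free medium, and between males in serum-free medium 74 against 199 and 201. Between males and females it was 52 against 119 and 116 in vivo, 13 against 62 and 97 in serum-containing and 11 against 53 and 57 in serum-free medium, and the interactions gave 0 against 14 and 5 with DESeq2. With 1 fit over all embryos the counts were 482 and 0 in females, 23 in serum-free males, and 23, 75 and 17 between the sexes in the same order, without a count limit 58 and 232 in females and 92 and 23 between the sexes in vivo and in serum-free medium, and with 15 counts in every embryo 0 between the sexes in either medium. No paired analysis was possible because the embryos compared share no replicate numbers. Counts under 30 per embryo for COL4A2, LAMA5, NID1 and HSPG2 in many embryos limit what differences of those genes could be seen.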
